A study of Mus musculus with 24 samples.

Results

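The response of mouse embryonic stem cells (mESCs) to removal of the MEK inhibitor PD03 was compared, gene by gene, with the response to removal of the GSK3 inhibitor CHIRON, each 12 h after removal. Of the 24 libraries of the series, the 16 collected at 0 h and 12 h were used, 8 from each experiment. The log2 fold change of 12 h against 0 h was fitted separately in each experiment with the substrate as a block. The 12925 protein-coding genes that passed the low-count filter in both experiments were then joined by symbol, out of 13305 tested in PD03 removal and 13925 tested in CHIRON removal. Levels were never compared between the experiments, only the changes.

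All cells were of the E14 mESC line and were cultured on fibronectin-coated StemBond hydrogels, which are soft or stiff polyacrylamide gels. They were kept in 2i + LIF for 12 h, a medium that held 1 µM PD03, 3 µM CHIRON and the cytokine LIF. RNA of the 0 h group was collected in this medium. In PD03 removal the cells then stayed in CHIRON + LIF for 12 h, and in CHIRON removal they stayed in PD03 + LIF for 12 h, so that LIF and the other inhibitor were present throughout. Each experiment had its own 0 h libraries, with 2 replicate libraries for each substrate and time. No label ties the replicates to separate cultures, so the p-values measure the spread between these libraries, which may be technical. The inhibitor removed and the experiment, which was sequenced in its own pools, were the same split and cannot be told apart. The 12 h libraries of both experiments also came after 12 more hours of culture and a change of medium, which cannot be told apart from the removal itself.

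PD03 blocks MEK, the kinase that activates ERK, so its removal lets FGF receptors signal through ERK, which in mESCs induces its own feedback inhibitors and prepares exit from naïve pluripotency. CHIRON blocks GSK3, the kinase that marks β-catenin for destruction, so that in its presence β-catenin accumulates and acts with Tcf/Lef factors at Wnt target genes. Together the inhibitors hold mESCs in a naïve state that resembles the epiblast before implantation.

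Total counts were between 16222196 and 26442153 per library in PD03 removal and between 19393787 and 31111260 in CHIRON removal. The spread between libraries was larger in CHIRON removal (biological coefficient of variation 0.0752, against 0.0384 in PD03 removal), and its stiff 0 h replicate 2 stood apart from the other libraries on the second principal component. The genes of the mitochondrial genome took 5.7% to 7.03% of the counts at 0 h and 10.0% to 11.8% at 12 h of PD03 removal, whereas in CHIRON removal they took 2.35% to 4.11% and 2.27% to 3.13%. The part of this rise in the results was not tested. All 6 markers of undifferentiated mESCs were detected above 1 CPM in both experiments, with a summed level of 3892 to 4598 normalised CPM (read counts scaled to library size by TMM, here called CPM) in every library. The 6 fibroblast markers summed to at most 2.54 CPM in PD03 removal and 6.63 CPM in CHIRON removal.

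Of the genes tested after PD03 removal 49.2% changed by 12 h, 24.4% higher and 24.8% lower (edgeR's quasi-likelihood F test, Benjamini-Hochberg adjusted p below 0.05). After CHIRON removal 33.9% changed, 17.5% higher and 16.4% lower. Of the 12925 joined genes, 24.6% were higher and 25.3% lower after PD03 removal, and 18.1% higher and 17.5% lower after CHIRON removal. With shares this large, many genes would change in both experiments even if the responses were unrelated. Whether more did so than that was not tested, so the counts below describe the genes and do not show a link between the removals. Among the joined genes, 2669 (20.6%) changed in both experiments. Of these, 1384 (10.7% of the joined genes) moved the same way, 718 higher (5.56%) and 666 lower (5.15%). Another 1285 genes (9.94%) moved in opposite ways, of which 643 (4.97%) rose after PD03 removal and fell after CHIRON removal and 642 (4.97%) did the reverse. The difference between the responses was then tested itself, in 1 fit of all 16 libraries. This fit estimated 1 spread per gene for both experiments, although the spread was larger in CHIRON removal. For *T* the standard error of the difference (0.24) was below that of its change after CHIRON removal alone (0.25). The difference was called for 5387 genes (41.7%), with the value of CHIRON removal higher for 2583 (20%) and lower for 2804 (21.7%). Among them were all 1285 that moved in opposite ways and 414 (3.2%) of those that moved the same way. Of the same-way genes 479 (3.71% of the joined genes) had the larger change after PD03 removal. A change in 1 experiment but not in the other was called for 5699 genes (44.1%). A gene was counted as moved by 1 inhibitor if it changed in 1 experiment, did not pass the threshold in the other, and passed the test of the difference, which held for 3414 genes (26.4%). PD03 removal alone moved 2065 genes (16%), 1053 higher (8.15%) and 1012 lower (7.83%), and CHIRON removal alone moved 1349 (10.4%), 646 higher (5%) and 703 lower (5.44%). With an absolute log2 fold change above 1 required as well, the order turned, with 170 genes moved by PD03 removal alone and 186 by CHIRON removal alone, and 487 and 620 genes changed in the 2 experiments. For a further 2285 genes (17.7%) that changed in 1 experiment the difference did not pass the test, so they were placed in no class, and 4557 (35.3%) changed in neither, of which 274 (2.12% of the joined genes) passed the test of the difference.

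**Figure D1:**
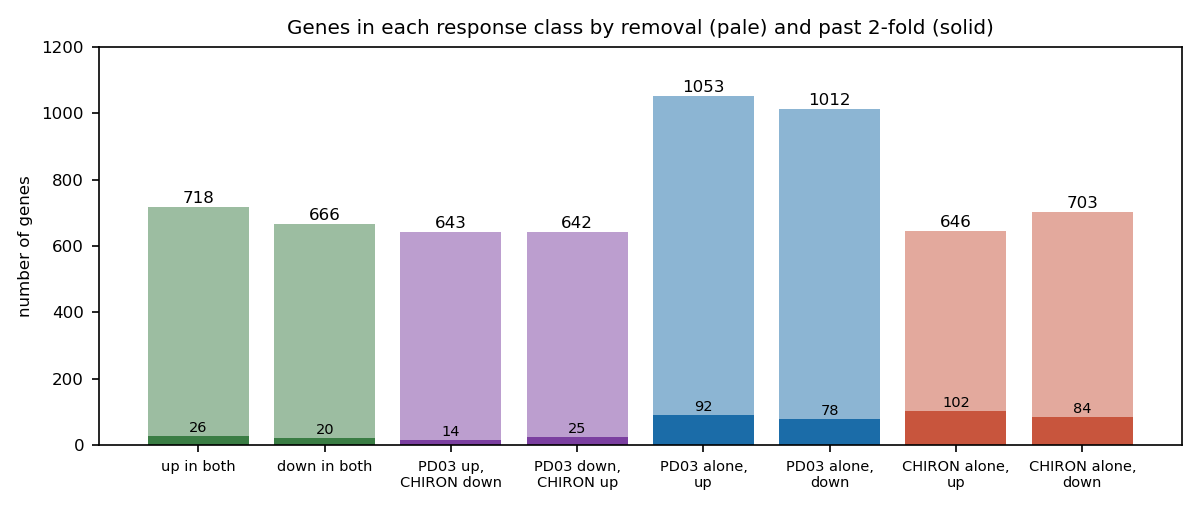
Number of genes (y axis) in each of the 8 response classes (x axis: PD03 and CHIRON stand for the inhibitor removed, up and down for higher and lower at 12 h), with all genes of the class as pale bars and those past 2-fold in every experiment that called them as solid bars. PD03 removal alone moved 1053 genes up and 1012 down, whereas the solid bars hold 14 to 26 genes for genes moved by both removals and 78 to 102 for genes moved by 1.

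Most changes were small. In the opposite classes the median log2 fold changes were 0.28 after PD03 removal and −0.32 after CHIRON removal for the first direction, and −0.33 and 0.39 for the second. A change over 2-fold in both experiments was seen in 26 genes that rose in both, 20 that fell in both, 14 that rose after PD03 removal and fell after CHIRON removal, and 25 that did the reverse. Over all 12925 genes the responses had a Pearson correlation of 0.017 and a Spearman correlation of 0.033. Over 4 comparisons of single libraries, matched by substrate and replicate number, their SDs were 0.027 and 0.033. These SDs describe single libraries and do not give the uncertainty of the values from all libraries. The correlation is a description across genes, which are not independent replicates, and no library was shared between the experiments.

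**Figure D2:**
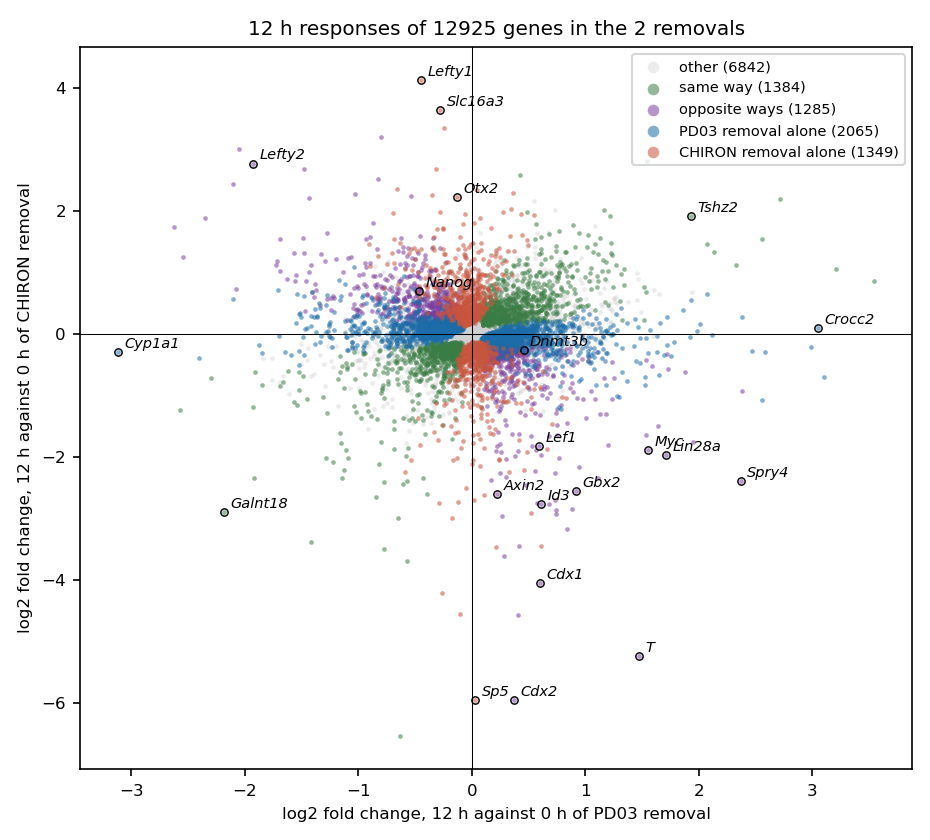
Log2 fold change at 12 h of PD03 removal (x axis) against that of CHIRON removal (y axis) for the 12925 joined genes (points), coloured by class. The points show little slope (Pearson correlation 0.017). *T*, *Cdx1*, *Cdx2* and *Sp5* lie far below 0 on the y axis, *Lefty1* and *Lefty2* far above, and *Spry4* lies at 2.37 and −2.39.

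The 3 marker genes of this comparison, *Lef1*, *Nanog* and *Dnmt3b*, all moved in opposite ways. *Lef1* (chromosome 3, 131110471 to 131224356 of GRCm38), a Tcf/Lef factor that is both a partner of β-catenin and a gene of the formative epiblast, had 13.7 and 16.4 on soft and 17.6 and 14.6 on stiff substrates (normalised CPM) at 0 h of PD03 removal and 23.3 and 23.6 on soft and 23.1 and 23.4 on stiff substrates at 12 h. In CHIRON removal it had 7.29 and 6.86 on soft and 5.2 and 7.26 on stiff substrates at 0 h and 1.46 and 1.48 on soft and 1.85 and 2.84 on stiff substrates at 12 h. All 4 libraries at 12 h lay above those at 0 h in the first experiment and below them in the second. The log2 fold changes (± standard error) were 0.59 ± 0.081 and −1.82 ± 0.21, with adjusted p = 5.03e-07 and 1.76e-06, and their difference was −2.42 ± 0.21 (adjusted p = 1.07e-09).

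*Nanog* (chromosome 6, 122707489 to 122714633), a core factor of naïve pluripotency, had 1081 and 1113 on soft and 1137 and 1137 on stiff substrates at 0 h of PD03 removal, and 816 and 868 on soft and 793 and 768 on stiff substrates at 12 h. The CHIRON removal libraries held 593 and 583 on soft and 596 and 508 on stiff substrates at 0 h, and 846 and 978 on soft and 937 and 939.8 on stiff substrates at 12 h. The groups did not overlap in either experiment, and the order of 0 h and 12 h was turned. *Nanog* changed by −0.46 ± 0.032 (adjusted p = 6.20e-13) and by 0.70 ± 0.063 (adjusted p = 1.07e-07).

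*Dnmt3b* (chromosome 2, 153649450 to 153687730), which encodes a de novo DNA methyltransferase, had 208 and 209 on soft and 232 and 229 on stiff substrates at 0 h and 284 and 289 on soft and 316 and 316 on stiff substrates at 12 h of PD03 removal. In CHIRON removal the values were 71.4 and 81.1 on soft and 90.6 and 75.9 on stiff substrates at 0 h and 59.6 and 69.6 on soft and 74.7 and 62.9 on stiff substrates at 12 h, so that 0 h and 12 h libraries overlapped when the substrates were pooled. Its rise after PD03 removal was 0.46 ± 0.031 (adjusted p = 4.96e-13). Its fall after CHIRON removal was −0.26 ± 0.074 (adjusted p = 0.011), and this call was lost without the soft 0 h replicate 2 (−0.23, adjusted p = 0.0545) and without the stiff 12 h replicate 2 (−0.21, adjusted p = 0.0588). The difference between the responses was −0.72 ± 0.083 (adjusted p = 1.51e-07) with all libraries.

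**Figure D3:**
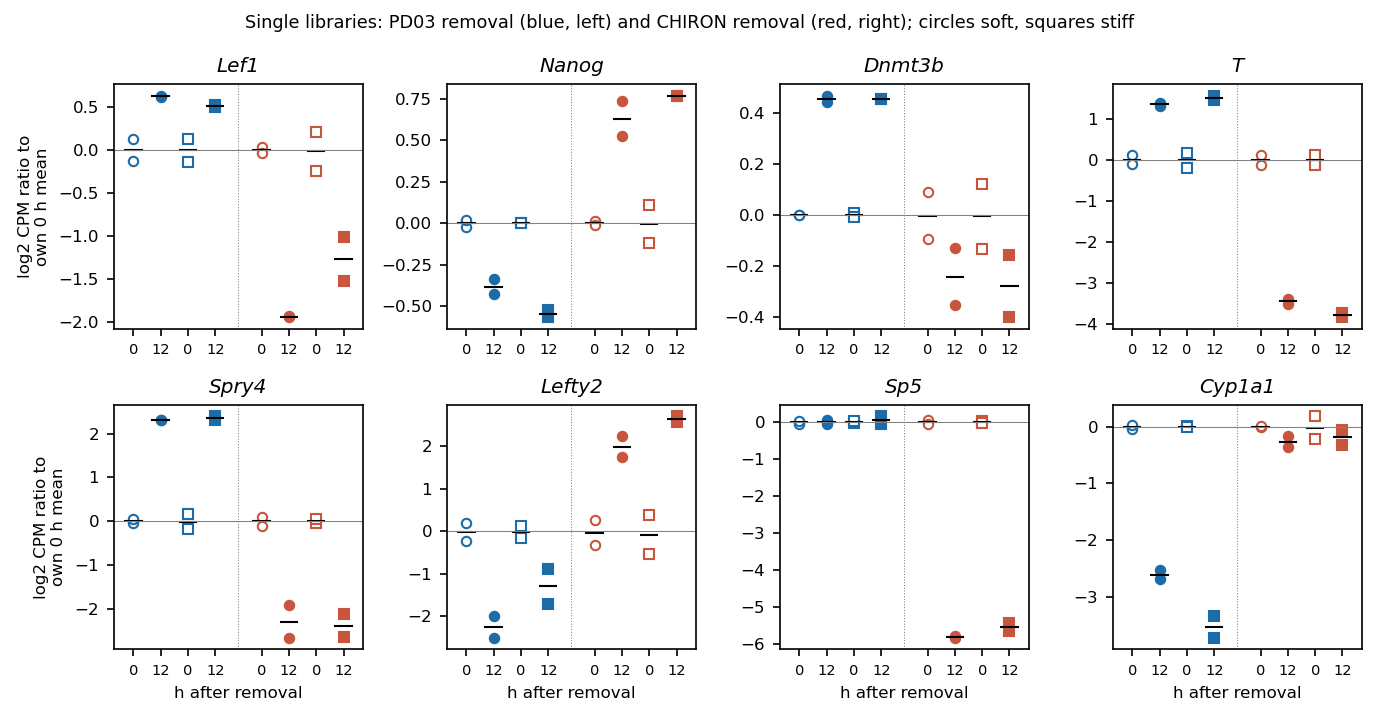
Single libraries of 8 genes: log2 ratio of normalised CPM, with a pseudocount of 0.5, to the mean of the 0 h libraries of the same experiment and substrate (y axis) at 0 h and 12 h (x axis), for PD03 removal (blue, left) and CHIRON removal (red, right) on soft (circles) and stiff (squares) substrates; black bars are means of 2 libraries. *Lef1*, *T* and *Spry4* lie above 0 at 12 h of PD03 removal and below 0 at 12 h of CHIRON removal, *Nanog* and *Lefty2* the reverse, *Sp5* moves in CHIRON removal and *Cyp1a1* in PD03 removal.

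Of the 22 tested genes on a list of Wnt targets and negative feedback genes, 8 rose and 5 fell after PD03 removal, whereas 5 rose and 13 fell after CHIRON removal. Against 18.1% of the joined genes higher and 17.5% lower in CHIRON removal, and 24.6% and 25.3% in PD03 removal, the list was read by its counts and its medians of 0.13 after PD03 removal and −0.76 after CHIRON removal. The medians of all joined genes were 0.0015 and −0.0030. The counts of every list are to be read against the same shares, and counts of opposite and same-way moves against 9.94% and 10.7%. A count near these shares is not a result about the list. Opposite moves were made by 9 of the 22, 7 of them higher after PD03 removal, and 7 were moved by CHIRON removal alone.

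As examples of sequence, the 250 bases before the start of 5 genes are given from RefSeq (GRCm38.p6), 5′ to 3′ on the strand of the gene. Matches to the TCF/LEF strings CTTTGAA and CTTTGAT or their reverse complements are in capitals. The genes were picked by hand, and *Lin28a* and *Nanog* are not on the list of Wnt targets, so matches among them are not a share of any class. *Sp5* and *T* fell furthest of the Wnt targets after CHIRON removal, *Lin28a* moved over 2-fold in both experiments, in opposite ways, and *Axin2* and *Nanog* are shown as genes that moved in opposite ways and hold no match in the bases shown. They are chr2:70474673-70474922 (plus strand), chr17:8434173-8434422 (plus), chr4:134018817-134019066 (minus), chr11:108920099-108920348 (plus) and chr6:122707239-122707488 (plus), in this order. *Nanog* has 2 promoter windows, of which only the first is shown.
Sp5: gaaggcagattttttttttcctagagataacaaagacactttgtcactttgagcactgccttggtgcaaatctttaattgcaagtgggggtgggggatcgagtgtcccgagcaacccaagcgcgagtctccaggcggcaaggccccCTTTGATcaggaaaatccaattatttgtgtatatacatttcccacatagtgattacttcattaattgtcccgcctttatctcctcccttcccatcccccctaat
T: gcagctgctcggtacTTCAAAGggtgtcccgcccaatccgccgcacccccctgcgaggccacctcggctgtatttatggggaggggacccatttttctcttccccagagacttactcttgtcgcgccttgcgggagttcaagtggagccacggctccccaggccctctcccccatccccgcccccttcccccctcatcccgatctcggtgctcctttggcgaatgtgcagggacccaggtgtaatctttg
Lin28a: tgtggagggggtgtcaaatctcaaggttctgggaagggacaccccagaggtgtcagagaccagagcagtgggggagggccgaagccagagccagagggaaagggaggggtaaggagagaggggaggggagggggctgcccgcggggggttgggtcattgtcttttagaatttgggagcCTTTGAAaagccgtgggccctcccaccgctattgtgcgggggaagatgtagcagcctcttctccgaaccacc
Axin2: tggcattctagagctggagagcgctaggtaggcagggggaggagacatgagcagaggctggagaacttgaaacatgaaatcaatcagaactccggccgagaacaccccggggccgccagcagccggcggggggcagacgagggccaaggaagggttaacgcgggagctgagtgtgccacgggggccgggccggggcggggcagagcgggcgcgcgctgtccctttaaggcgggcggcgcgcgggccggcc
Nanog: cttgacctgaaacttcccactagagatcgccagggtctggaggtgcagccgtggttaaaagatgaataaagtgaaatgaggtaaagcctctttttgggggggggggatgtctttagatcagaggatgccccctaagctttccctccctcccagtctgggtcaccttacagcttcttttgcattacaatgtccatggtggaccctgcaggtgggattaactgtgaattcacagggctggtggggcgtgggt
The match in *Sp5* began 104 bases before the RefSeq gene start, that in *T* 235 bases and that in *Lin28a* 72 bases. The bases shown for *Lin28a* overlap the gene coordinates given below, which come from another annotation with a start further upstream. Promoter windows of 300 bases, from 250 before to 50 after a start, were at hand for 9888 of the 12925 joined genes, some with several windows, and were searched on both strands for the TCF/LEF strings, for TGANTCA (AP-1) and for CCGGAAGT (ETS). The 2 TCF/LEF strings differ in their last letter and were counted as 1 motif. A TCF/LEF match was held by 5.68% of the windows of all joined genes and by 8.65% of all 32851 windows in the reference table. The share was 8.7% (60 of 690) for genes lowered by CHIRON removal alone and 8.14% (52 of 639) for genes that rose after PD03 removal and fell after CHIRON removal. It was 5.23% (37 of 708) for genes raised by CHIRON removal alone and 4.53% (28 of 618) for genes of the second opposite class. It lay between 4.23% and 5.98% in the 4 other classes. The AP-1 string was held by 4.81% of the windows of the joined genes and by 3.48% to 6.64% in the 8 classes, and the ETS string by 7.74% and by 3.07% to 9.71%. The lowest ETS shares were those of the genes raised by CHIRON removal in the second opposite class (3.07%) and by CHIRON removal alone (3.39%). A match is a description of letters, not of binding.

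*Sp5* (chromosome 2, 70474923 to 70477729), a transcription factor and direct Wnt target, had 169 and 157 on soft and 134 and 128 on stiff substrates at 0 h of CHIRON removal, and 2.36 and 2.45 on soft and 2.57 and 2.14 on stiff substrates at 12 h. It was 61.7-fold lower, a log2 fold change of −5.95 ± 0.083 (adjusted p = 5.79e-19). After PD03 removal its libraries overlapped, with 64.5–73.1 CPM at 0 h and 64–74 at 12 h, a change of 0.033 ± 0.048 with a 95% interval of −0.066 to 0.13.

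*T* (chromosome 17, 8434423 to 8442496), the primitive streak gene also called Brachyury, had 12.8 and 11 on soft and 13.8 and 10.5 on stiff substrates at 0 h of PD03 removal and 31.7 and 30.5 on soft and 34.4 and 36.9 on stiff substrates at 12 h. In CHIRON removal it had 7.44 and 8.94 on soft and 7.53 and 8.94 on stiff substrates at 0 h and 0.262 and 0.322 on soft and 0.154 and 0.107 on stiff substrates at 12 h. It was thus 2.78-fold higher after PD03 removal and 37.9-fold lower after CHIRON removal, with log2 fold changes of 1.48 ± 0.082 and −5.24 ± 0.25 (adjusted p = 5.83e-15 and 3.14e-11), and none of its groups overlapped.

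The homeobox gene *Cdx1* went from 143–154 to 214–231 CPM after PD03 removal and from 154–170.1 to 7.96–13.8 after CHIRON removal, log2 fold changes of 0.60 ± 0.036 and −4.06 ± 0.096. *Axin2* (chromosome 11, 108920349 to 108950783), a feedback inhibitor of the pathway in the β-catenin destruction complex, rose by 0.23 ± 0.038 (adjusted p = 1.45e-05) and changed by −2.61 ± 0.057 after CHIRON removal (adjusted p = 7.95e-16). *Tcf7*, which like *Lef1* encodes a Tcf/Lef factor, changed by 0.55 ± 0.063 and −1.12 ± 0.061. Its relatives went another way: the repressor gene *Tcf7l1* rose in both experiments (0.25 and 0.53), and *Tcf7l2* rose after CHIRON removal (0.73). *Nkd1*, *Rnf43* and *Dkk1*, which encode inhibitors of the pathway, fell after CHIRON removal alone (−1.30, −2.91 and −1.72). Not all Wnt inhibitors fell, since *Notum* and *Sfrp1* fell after PD03 removal (−0.31 and −0.54) and rose after CHIRON removal (0.63 and 0.75). Of the 21 genes on a list of Tcf/Lef factors, β-catenin and the destruction complex, 13 rose and 4 fell after PD03 removal and 7 rose and 3 fell after CHIRON removal, and the 3 that moved in opposite ways were *Tcf7*, *Lef1* and *Axin2*. Among 23 Wnt ligands and receptors the ligand gene *Wnt5b* changed most, from 2.17–3.84 to 0.0644–0.429 CPM after CHIRON removal (−3.45 ± 0.36) and by 0.42 ± 0.090 after PD03 removal. *Porcn*, the gene of the enzyme that attaches the lipid that Wnt ligands need, also moved in opposite ways (0.69 and −0.96), and the receptor gene *Fzd7* rose after PD03 removal alone (1.14 ± 0.062). Without the stiff 0 h replicate 1 of CHIRON removal, *Fzd7* was also called lower there (−0.20, adjusted p = 0.0466).

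The primitive streak list had 18 genes, of which 9 passed the filter in both experiments. *T* and *Cdx1* stand on this list and on that of Wnt targets, so the lists are not separate evidence. After PD03 removal 7 of the 9 rose and 1 fell, and after CHIRON removal 1 rose and 5 fell, with medians of 0.75 and −0.70. Of all joined genes 24.6% rose and 25.3% fell after PD03 removal, and 18.1% rose and 17.5% fell after CHIRON removal. *Cdx2* (chromosome 5, 147300805 to 147307270), a caudal homeobox gene, went from 3.5–6.67 to 0–0.15 CPM after CHIRON removal, a fitted log2 fold change of −5.95 ± 0.43 that rests on at most 4 counts in a 12 h library. After PD03 removal *Cdx2* rose by 0.38 ± 0.084 (adjusted p = 4.51e-04). *Eomes*, a T-box factor of mesendoderm, went from 4.25–6.83 to 15.1–20.9 CPM after PD03 removal (1.72 ± 0.13). Its change after CHIRON removal was −0.32 ± 0.11 (adjusted p = 0.0247), a call that was lost in turn without 4 of the 8 libraries (soft 0 h replicate 2, stiff 0 h replicate 1 and both stiff 12 h replicates), where it was between −0.33 and −0.28. The same holds for *Wnt8a* (−1.22 ± 0.42, adjusted p = 0.0332), whose call after CHIRON removal was lost without any 1 of 7 libraries, all but stiff 0 h replicate 2, with values between −1.37 and −0.92. The member that went the other way was the organiser gene *Gsc*, which fell after PD03 removal (−1.39) and rose after CHIRON removal (0.60). *Fgf8*, *Mesp1*, *Foxa2* and *Wnt3* were among the 9 members that did not pass the filter.

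The ERK list, of targets and feedback inhibitors, had 24 tested genes of 29. After PD03 removal 15 rose and 2 fell, whereas after CHIRON removal 6 rose and 12 fell, and the medians were 0.44 and −0.14. Of the 10 that moved in opposite ways 9 rose after PD03 removal, namely *Dusp6*, *Spry1*, *Spry2*, *Spry4*, *Spred1*, *Etv4*, *Phlda1*, *Myc* and *Il17rd*, and the other was *Mcl1*. Some of these genes, such as *Myc*, are also known Wnt targets and stand on both lists.

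*Spry4*, a Sprouty inhibitor of receptor tyrosine kinase signalling, had 20.1 and 21.5 on soft and 30.5 and 23.8 on stiff substrates at 0 h and 106 and 105 on soft and 145 and 136 on stiff substrates at 12 h of PD03 removal. The CHIRON removal libraries held 44.6 and 38.1 on soft and 46.7 and 49.7 on stiff substrates at 0 h, and 6.11 and 10.6 on soft and 10.7 and 7.34 on stiff substrates at 12 h. It rose 5.16-fold in the first and fell 5.23-fold in the second, so that changes of nearly equal size faced each other (2.37 ± 0.056 and −2.39 ± 0.13, adjusted p = 5.38e-24 and 1.89e-10). No 12 h library overlapped the 0 h libraries, but *Spry4* is also an example of its class. Such examples were chosen for a lack of overlap on each substrate, which held for 515 of the 643 genes of the class. *Myc* (chromosome 15, 61985391 to 61990374), which encodes a transcription factor of growth, went from 4.41–6.02 to 11–19.9 CPM after PD03 removal, and from 38.5–45.9 to 8.73–15.5 after CHIRON removal, log2 fold changes of 1.55 ± 0.11 and −1.89 ± 0.12. *Spry2* changed by 0.75 ± 0.040 and −1.28 ± 0.059, and *Phlda1*, an ERK-induced gene, by 1.24 ± 0.21 and −1.06 ± 0.087. *Dusp6*, which encodes the phosphatase that inactivates ERK, changed by 1.24 ± 0.049 and −0.45 ± 0.098, and *Etv4*, an ETS factor, by 1.16 ± 0.035 and −0.72 ± 0.050. Not every feedback gene fell after CHIRON removal: *Dusp4*, *Spred2* and *Spred3* rose after PD03 removal alone (1.78, 0.51 and 0.75). The immediate early genes *Jun* and *Ier3* rose after CHIRON removal alone (0.71 and 1.59), and *Egr1*, *Egr2*, *Egr3*, *Fosb* and *Fosl1* did not pass the low-count filter in both experiments and were not compared.

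**Figure D4:**
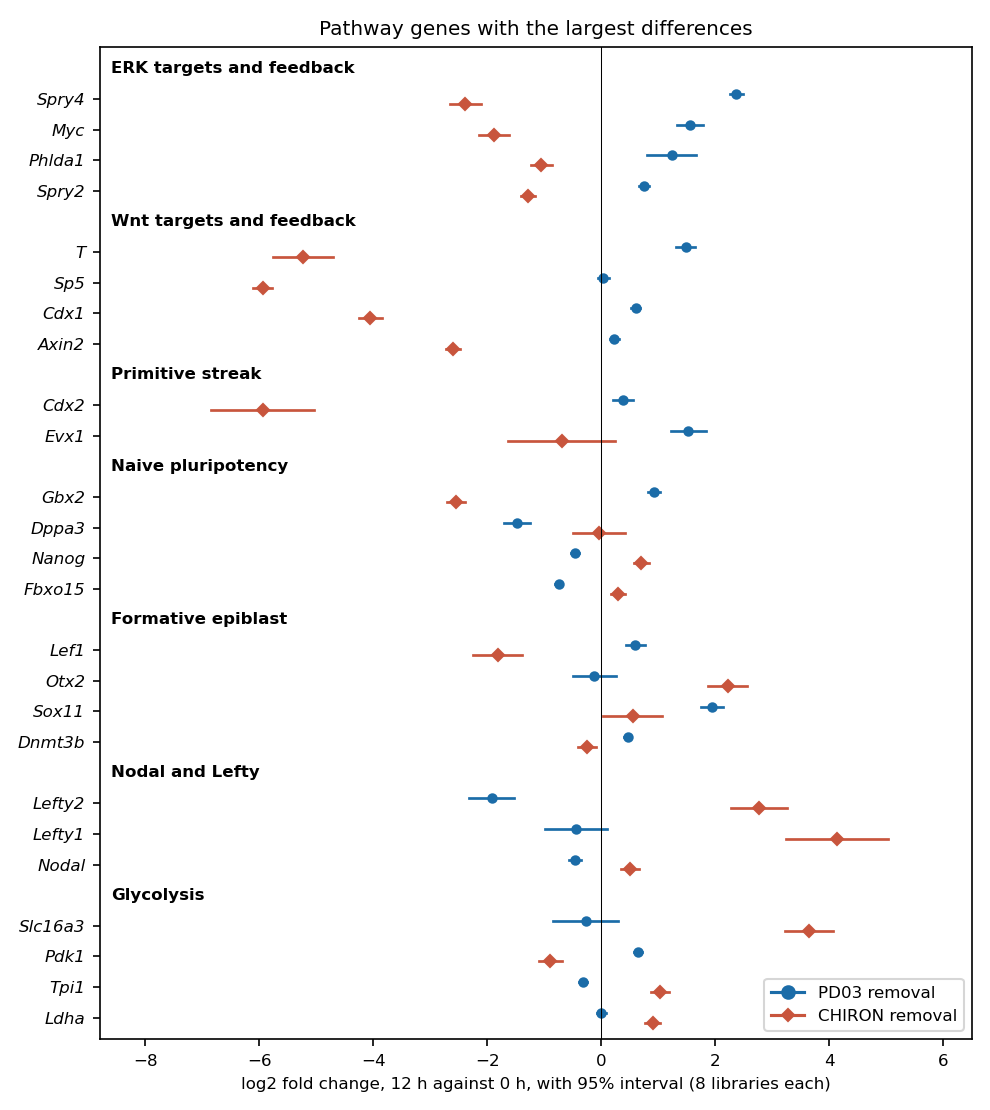
Log2 fold change with 95% interval (x axis) of 25 genes from 7 lists (y axis) after PD03 removal (blue circles) and CHIRON removal (red diamonds), from 8 libraries each. *Spry4*, *Myc*, *T*, *Cdx1*, *Gbx2*, *Lef1*, *Lefty2* and *Nodal* lie on different sides of 0 in the 2 experiments, whereas the intervals of *Sp5* and *Ldha* after PD03 removal include 0.

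Genes of naïve pluripotency moved in both directions in each experiment. Of 21 genes, 6 rose and 11 fell after PD03 removal, with a median of −0.086, and 10 rose and 7 fell after CHIRON removal, with a median of 0.12. Opposite moves were made by 9 genes, of which 7 (*Nanog*, *Zfp42*, *Prdm14*, *Fbxo15*, *Tcl1*, *Dppa5a* and *Tet2*) fell after PD03 removal and rose after CHIRON removal. The fall of *Tet2* was lost as a call without soft 0 h replicate 1 (−0.067, adjusted p = 0.0749) and without soft 12 h replicate 1 (−0.081, adjusted p = 0.0538). *Fbxo15* changed by −0.75 ± 0.033 and 0.29 ± 0.057, *Zfp42*, also called Rex1, by −0.21 ± 0.029 and 0.26 ± 0.053, and *Prdm14* by −0.54 ± 0.051 and 0.32 ± 0.074. The 2 that did the reverse were *Nr0b1* (0.46 and −0.46) and the homeobox gene *Gbx2* (chromosome 1, 89927956 to 89931179). *Gbx2* had 71.3 and 64.9 on soft and 62.9 and 63.3 on stiff substrates at 0 h and 114 and 118 on soft and 136 and 129 on stiff substrates at 12 h of PD03 removal, and 65.1 and 62.6 on soft and 62.2 and 66.2 on stiff substrates at 0 h and 9.97 and 10.2 on soft and 11.9 and 11.7 on stiff substrates at 12 h of CHIRON removal. With log2 fold changes of 0.92 ± 0.050 and −2.55 ± 0.073 it had the largest difference on the list. Factors that fell in both experiments were *Klf4* (−0.26 and −0.33), *Tfcp2l1* (−0.43 and −0.65) and *Tdh* (−0.086 and −1.10). *Esrrb* and *Klf5* fell after CHIRON removal alone (−0.27 and −0.33), and *Dppa3*, a maternal factor gene, fell after PD03 removal alone, from 12.5–15.1 to 3.73–5.71 CPM (−1.48 ± 0.11), with −0.046 ± 0.22 after CHIRON removal.

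Among the general pluripotency genes, *Sox2* fell after PD03 removal (−0.19 ± 0.031) and rose after CHIRON removal (0.40 ± 0.059). *Pou5f1*, also called Oct4, rose after CHIRON removal alone (0.23 ± 0.050) and changed by −0.034 ± 0.030 after PD03 removal. *Lin28a* (chromosome 4, 134003330 to 134018841), which encodes an RNA-binding protein that blocks the let-7 microRNAs, had 113 and 106 on soft and 119 and 112 on stiff substrates at 0 h and 334 and 328 on soft and 407 and 409 on stiff substrates at 12 h of PD03 removal. It had 42.8 and 43.9 on soft and 43.6 and 45.2 on stiff substrates at 0 h and 10.8 and 8.95 on soft and 14.2 and 10.8 on stiff substrates at 12 h of CHIRON removal. These were moves of 1.71 ± 0.040 and −1.97 ± 0.095 (adjusted p = 5.38e-24 and 3.40e-11). *Lin28a* is also an example of its class, and such examples were chosen for a lack of overlap on each substrate. *Utf1*, a chromatin factor gene, rose in both, by 1.52 ± 0.079 and 0.23 ± 0.054.

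Of 13 tested genes of the formative and post-implantation epiblast, 10 rose and 1 fell after PD03 removal, 7 rose and 3 fell after CHIRON removal, and 5 moved the same way. *Zic2*, *Zic5*, *Sall2*, *Sox3* and *Dnmt3a* rose in both. *Sox11* rose after PD03 removal alone, from 5.11–6.2 to 17.9–22.9 CPM (1.93 ± 0.096). *Otx2* (chromosome 14, 48657677 to 48673819), a homeobox gene that marks the start of formative transition, had 1.62 and 1.29 on soft and 1.68 and 1.52 on stiff substrates at 0 h and 6.82 and 6.05 on soft and 7.8 and 7.83 on stiff substrates at 12 h of CHIRON removal. It rose 4.65-fold (2.22 ± 0.16, adjusted p = 8.45e-09), and after PD03 removal its change was −0.13 ± 0.19 with a 95% interval of −0.51 to 0.25. Among 12 DNA methylation and demethylation enzymes, 8 rose and 1 fell after PD03 removal and 6 rose and 2 fell after CHIRON removal. *Tet1*, *Tet3*, *Tdg* and *Dnmt3a* rose in both, and *Dnmt3l*, a cofactor of de novo methylation, rose after PD03 removal alone (0.84 ± 0.041, against −0.13 ± 0.064). Without the soft 12 h replicate 1 of CHIRON removal, *Dnmt3l* was called lower there (−0.20, adjusted p = 0.0244).

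Nodal is a ligand of the TGF-β family that mESCs make themselves, and Lefty proteins inhibit it. *Lefty2* (chromosome 1, 180893108 to 180899103), a secreted inhibitor of Nodal, had 13.9 and 10.4 on soft and 8.1 and 6.61 on stiff substrates at 0 h of PD03 removal and 1.73 and 2.69 on soft and 3.77 and 1.91 on stiff substrates at 12 h. In CHIRON removal it had 1.43 and 0.777 on soft and 2.01 and 0.813 on stiff substrates at 0 h and 7.08 and 4.89 on soft and 10.8 and 12 on stiff substrates at 12 h. It fell 3.8-fold and rose 6.81-fold, with log2 fold changes of −1.93 ± 0.19 and 2.77 ± 0.23 (adjusted p = 1.89e-09 and 4.14e-08). *Lefty1*, its neighbour on chromosome 1 and of the same family, went from 0–0.379 to 2.57–3.75 CPM after CHIRON removal (4.13 ± 0.43), where 1 library at 0 h had no count. After PD03 removal it changed by −0.44 ± 0.26, with a 95% interval of −0.98 to 0.097. Because these genes are near copies of each other, reads may have been shared between them in the counting. *Nodal* itself changed by −0.47 ± 0.053 and 0.50 ± 0.073, and *Smad3*, which encodes its signal transducer, changed by −0.23 ± 0.083 and 0.63 ± 0.076. *Inhbb*, an activin subunit gene, rose in both (0.77 ± 0.071 and 1.67 ± 0.13). Of the 16 tested members of the pathway, 2 rose and 5 fell after PD03 removal and 7 rose and 2 fell after CHIRON removal.

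In the BMP pathway, *Bmp4* rose after PD03 removal (0.66 ± 0.056) and fell after CHIRON removal (−1.04 ± 0.068). *Id3*, a BMP-induced inhibitor of helix-loop-helix factors, went from 43–51 to 66.7–75.3 CPM and from 26.3–30.3 to 3.22–5.18 CPM, changes of 0.61 ± 0.047 and −2.77 ± 0.11. Its relatives differed, as *Id1* rose after PD03 removal alone (1.48 ± 0.12), *Id2* moved the opposite way to *Id3* (−0.85 and 0.76) and *Id4* fell in both (−1.16 and −0.36). Among the FGF genes *Fgf4*, the main ligand that activates ERK in mESCs, had 209 and 212 on soft and 221 and 192 on stiff substrates at 0 h and 150.4 and 147 on soft and 152 and 139 on stiff substrates at 12 h of PD03 removal. The CHIRON removal libraries held 146 and 137 on soft and 157 and 142 on stiff substrates at 0 h and 332 and 356 on soft and 324 and 341 on stiff substrates at 12 h. It changed by −0.50 ± 0.040 and 1.22 ± 0.055 (adjusted p = 1.37e-11 and 1.51e-11). The receptor gene *Fgfr2* moved the same ways as *Fgf4* (−0.93 ± 0.21 and 1.54 ± 0.23).

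For LIF signalling, which was kept on in both experiments, 15 genes were tested. After PD03 removal 7 rose and 5 fell, after CHIRON removal 5 rose and 6 fell, and 6 moved the same way. *Socs3*, the feedback inhibitor, changed by 0.21 ± 0.037 and −0.26 ± 0.064, and *Stat3* by 0.10 ± 0.033 and −0.37 ± 0.049. The *Stat3* call after PD03 removal was lost without the stiff 12 h replicate 1 (0.088, adjusted p = 0.0546).

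**Figure D5:**
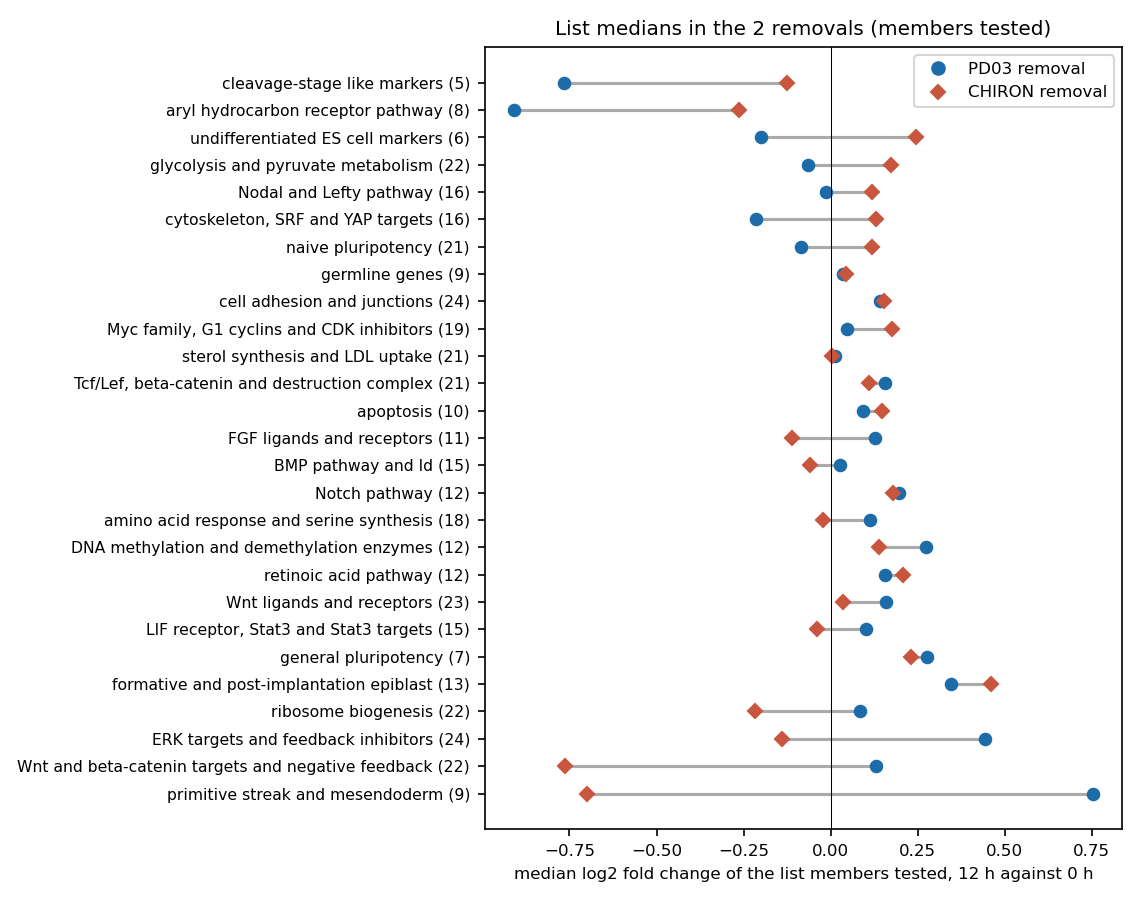
Median log2 fold change (x axis) of the tested members of 27 gene lists (y axis, number tested in brackets) after PD03 removal (blue circles) and CHIRON removal (red diamonds), ordered by the median difference. Primitive streak genes (0.75 and −0.70), Wnt targets (0.13 and −0.76) and ERK targets (0.44 and −0.14) lie at 1 end with PD03 removal on the right, and glycolysis genes (−0.064 and 0.17) are among those with CHIRON removal on the right. Lists share members, such as *T* and *Cdx1* (primitive streak and Wnt targets) and *Myc* (Wnt and ERK targets).

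Of 22 ribosome biogenesis genes, 11 rose and 2 fell after PD03 removal, none rose and 15 fell after CHIRON removal, and all 9 that moved in opposite ways rose after PD03 removal. The shifts were small, with medians of 0.083 and −0.22. The nucleolin gene *Ncl* changed by 0.44 ± 0.035 and −0.24 ± 0.056, *Nolc1*, which encodes a nucleolar chaperone, by 0.26 ± 0.035 and −0.26 ± 0.049, and *Rrn3*, a factor of RNA polymerase I, by 0.10 ± 0.029 and −0.56 ± 0.049. Of 22 genes of glycolysis and pyruvate metabolism, 4 rose and 10 fell after PD03 removal, while 12 rose and 1 fell after CHIRON removal. *Slc16a3* (chromosome 11, 120948480 to 120960868), the gene of a lactate exporter, had 1.62 and 1.73 on soft and 2.06 and 1.08 on stiff substrates at 0 h and 20.1 and 21.1 on soft and 13.9 and 26.1 on stiff substrates at 12 h of CHIRON removal, a rise of 3.64 ± 0.20 (adjusted p = 2.09e-10). After PD03 removal it changed by −0.28 ± 0.28 (95% interval −0.85 to 0.30). *Ldha*, which makes lactate, also rose after CHIRON removal alone, from 203–229 to 358–438 CPM (0.90 ± 0.063). *Tpi1*, *Pgk1*, *Hk1* and *Pkm* fell after PD03 removal and rose after CHIRON removal, *Tpi1* by −0.32 ± 0.034 and 1.03 ± 0.077. The member that rose after PD03 removal and fell after CHIRON removal was *Pdk1* (0.64 ± 0.033 and −0.90 ± 0.093), which encodes a mitochondrial kinase that inhibits pyruvate dehydrogenase.

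Sterol synthesis genes, with 5 higher and 5 lower of 21 after PD03 removal and 1 higher and 5 lower after CHIRON removal, had medians of 0.013 and 0.0033. Their counts after PD03 removal were at the shares of all joined genes (24.6% higher and 25.3% lower), and the genes lower after CHIRON removal were near the share of 17.5%. In the amino acid response and serine synthesis list of 18 genes, 5 rose and 2 fell after PD03 removal and 2 rose and 6 fell after CHIRON removal. The asparagine synthetase gene *Asns* fell in both (−0.14 ± 0.028 and −0.85 ± 0.052), and the amino acid transporter gene *Slc7a5* rose and fell (0.21 and −0.31). Of 19 Myc family, cyclin and CDK inhibitor genes 7 rose and 2 fell after PD03 removal and 9 rose and 3 fell after CHIRON removal. *Mxd4*, which encodes an antagonist of Myc, moved against *Myc* (−0.35 ± 0.12 and 0.81 ± 0.17), though its call after PD03 removal was lost without the soft 12 h replicate 2 (−0.31, adjusted p = 0.0530).

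In the aryl hydrocarbon receptor pathway, 2 of 8 genes rose and 6 fell after PD03 removal, and 1 rose and 3 fell after CHIRON removal. *Cyp1a1* (chromosome 9, 57687928 to 57703824), the classical target of the receptor, had 35.5 and 37.5 on soft and 34.2 and 33.6 on stiff substrates at 0 h and 5.89 and 5.25 on soft and 2.1 and 2.9 on stiff substrates at 12 h of PD03 removal. It was 8.65-fold lower (−3.11 ± 0.12, adjusted p = 2.08e-18), whereas its CHIRON removal libraries overlapped, at 1.19–1.73 CPM at 0 h and 0.902–1.39 at 12 h (−0.30 ± 0.28). *Tiparp*, another target, moved in opposite ways (0.27 and −1.03), and so did *Nqo1* (−0.23 and 0.56). *Ahrr*, the repressor of the receptor, fell after PD03 removal (−2.57 ± 0.22) and after CHIRON removal (−1.23 ± 0.41, adjusted p = 0.0266), but the second call was lost without any 1 of 4 libraries (soft 0 h replicate 1, soft 12 h replicate 2, stiff 0 h replicate 1 and stiff 12 h replicate 2), where it lay between −1.23 and −0.96.

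Of 12 retinoic acid genes 5 rose and 3 fell after PD03 removal and 4 rose and 1 fell after CHIRON removal, which is within a few genes of the shares over all joined genes (24.6% and 25.3%, and 18.1% and 17.5%). *Aldh1a2*, the enzyme that makes retinoic acid, fell after PD03 removal alone (−1.85 ± 0.15). *Dhrs3*, which turns retinal back to retinol, rose after CHIRON removal alone (1.42 ± 0.093), and the retinoic acid target *Stra8* changed by −0.28 ± 0.084 and 1.40 ± 0.10. In the Notch list of 12 genes, 5 rose and 1 fell after PD03 removal, 4 rose and none fell after CHIRON removal, and none moved in opposite ways. The shares over all joined genes were 24.6% and 25.3% after PD03 removal, 18.1% and 17.5% after CHIRON removal and 9.94% for opposite moves, which in a list of this size are differences of a few genes. The receptor genes *Notch1* (0.18 and 0.79) and *Notch4* (0.44 and 0.86) rose in both.

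Of 16 cytoskeleton, SRF and YAP target genes, 2 rose and 9 fell after PD03 removal and 5 rose and 5 fell after CHIRON removal. *Cyr61*, a YAP target, fell after PD03 removal alone (−0.63 ± 0.082), and *Zyx*, the gene of the focal adhesion protein zyxin, rose and fell (1.59 ± 0.12 and −0.53 ± 0.098). In the list of 24 adhesion and junction genes 10 rose and 7 fell after PD03 removal, 11 rose and 3 fell after CHIRON removal, and 8 moved the same way. *Cldn4*, a tight junction gene, fell after PD03 removal alone (−0.84 ± 0.059), and *Itgb5*, an integrin gene, moved in opposite ways (−0.38 and 0.33). Of 10 apoptosis genes 4 rose and 2 fell in each experiment, against 24.6% and 25.3% of the joined genes after PD03 removal and 18.1% and 17.5% after CHIRON removal, a difference of at most a few genes. The pro-apoptotic genes differed, as *Pmaip1* rose after PD03 removal alone (0.99 ± 0.12), *Bbc3* after CHIRON removal alone (0.55 ± 0.12), and *Bid* rose and fell (0.12 ± 0.039 and −0.80 ± 0.062).

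Markers of other cell types and states moved with the removals in part. The summed level of 7 neuroectoderm markers went from 34.9 to 40.3 CPM at 0 h to 75.2 to 82.1 CPM at 12 h of CHIRON removal, and from 40.7 to 45.9 CPM to 34.8 to 38.4 CPM after PD03 removal. *Nes*, the gene of the intermediate filament nestin, went from 20.2–23.7 to 46–51.3 CPM after CHIRON removal (1.15 ± 0.066) and from 29.2–35.4 to 21.9–25.3 CPM after PD03 removal (−0.43 ± 0.070). The earlier factor *Sox1* rose in both (0.60 and 1.00), though after PD03 removal its call was lost without the stiff 12 h replicate 1 (0.38, adjusted p = 0.113), and *Pax6* passed the test in neither (after PD03 removal it passed without the stiff 12 h replicate 2, at 0.35, adjusted p = 0.0451). The 9 primitive endoderm markers summed to 10.5 to 13.1 CPM at 0 h and 14.1 to 17.8 CPM at 12 h of PD03 removal, and to 18.3 to 23.3 and 25.5 to 28.0 CPM in CHIRON removal, of which 4 genes passed the filter. The 7 trophoblast markers, which include *Cdx2* and *Eomes*, summed to 63.8 to 68.7 and 69.0 to 76.5 CPM in PD03 removal and to 76.6 to 80.6 and 82.5 to 91.2 CPM in CHIRON removal. Of the 3 trophoblast markers tested, none rose and 2 fell after CHIRON removal (*Cdx2* and *Eomes*), although the sum was higher at 12 h. The part of these cell types in the results was not tested. The cleavage-stage markers, which rare mESCs express, fell after PD03 removal in 5 of 5 tested genes (summed level 145 to 166 CPM at 0 h and 87.2 to 96.2 at 12 h) and after CHIRON removal in 1 of 5. *Zscan4c* changed by −0.74 ± 0.060 and −0.099 ± 0.075. Its near copies may share reads in the counting, so these values are uncertain. Of 9 tested germline genes 1 rose (*Rhox5*, 0.66 ± 0.053) and 2 fell after PD03 removal (joined genes 24.6% and 25.3%), and none passed the test after CHIRON removal. In a list of this size these counts differ from the shares over all joined genes by at most a few genes. Of the 2 that fell, *Sycp3*, a meiotic gene, changed by −0.52 ± 0.22 (adjusted p = 0.0464) and lost its call without any 1 of 6 of the 8 libraries, all but soft 0 h replicate 2 and soft 12 h replicate 2, with values between −0.57 and −0.38. In bulk RNA, fewer cells of a type and less RNA per cell cannot be told apart.

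Beyond the lists, 4 genes of each class were examined, among those whose 12 h libraries lay beyond the 0 h libraries on both substrates. Genes moved by both removals were ranked by the smaller of their 2 absolute log2 fold changes, so that *T* and *Cdx1*, with large changes after CHIRON removal and smaller changes after PD03 removal, rank lower, and genes moved by 1 were ranked by the change in that experiment. Of the genes that rose after PD03 removal and fell after CHIRON removal they were *Spry4*, *Lin28a*, *Myc* and *Slc39a14*. The zinc transporter gene *Slc39a14* (chromosome 14, 70303469 to 70351425) went from 20.6–24 to 58.1–74 CPM (1.53 ± 0.056) and from 4.66–5.76 to 1.46–2.25 CPM (−1.64 ± 0.18). Of the genes that did the reverse they were *Ggt7*, *Lefty2*, *Tmem132d* and *Abcb11*. *Tmem132d*, a transmembrane protein gene, went from 1.68–2.89 to 0.0725–0.985 CPM (−2.35 ± 0.34) after PD03 removal and from 6.29–9.01 to 23.1–31.2 CPM (1.88 ± 0.10) after CHIRON removal. *Ggt7*, of the gamma-glutamyltransferase family, changed by −2.10 ± 0.30 and 2.44 ± 0.27. *Abcb11*, a bile salt transporter gene, changed by −2.62 ± 0.39 and 1.73 ± 0.35 at low counts, with 0.145–0.277 CPM at 12 h of PD03 removal.

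The genes that rose in both experiments were led by *Myrf*, *Tshz2*, *Zfp423* and *Catip*. *Myrf* (chromosome 19, 10208272 to 10240748), a membrane-bound transcription factor known from myelin formation, had 1.91 and 1.98 on soft and 1.7 and 2.12 on stiff substrates at 0 h and 9.42 and 11.7 on soft and 15.5 and 14.4 on stiff substrates at 12 h of PD03 removal. In CHIRON removal it had 6.16 and 5.66 on soft and 4.99 and 3.9 on stiff substrates at 0 h and 20.9 and 23.6 on soft and 26 and 24.4 on stiff substrates at 12 h. It was 6.55-fold and 4.55-fold higher (2.71 ± 0.14 and 2.19 ± 0.12). *Zfp423*, a zinc finger factor, rose by 2.56 ± 0.12 and 1.54 ± 0.12, and the rise was larger after PD03 removal (difference −1.02 ± 0.17, adjusted p = 3.22e-05). *Catip* rose by 2.07 ± 0.11 and 1.45 ± 0.17. *Tshz2*, a zinc finger homeobox factor, lay at 0.128–0.231 CPM at 0 h and 0.346–0.797 at 12 h of PD03 removal, and its call after CHIRON removal (1.91 ± 0.53) was lost without the soft 0 h replicate 2 (1.45, adjusted p = 0.0508).

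Genes that fell in both were led by *Galnt18*, *Cyp1b1*, *Cacng5* and *Wnt11*, all at low counts. *Galnt18*, an enzyme gene of O-glycosylation, went from 1.13–1.79 to 0.166–0.525 CPM and from 0.604–1.33 to 0.0644–0.214 CPM (−2.18 ± 0.36 and −2.90 ± 0.51). *Cyp1b1*, which like *Cyp1a1* is a target of the aryl hydrocarbon receptor, changed by −1.92 ± 0.34 and −2.35 ± 0.59 as fitted changes, where *Cyp1a1* was lower after PD03 removal alone. The Wnt ligand gene *Wnt11* changed by −1.28 ± 0.33 and −2.02 ± 0.49, and *Cacng5*, a calcium channel subunit gene, by −1.42 ± 0.42 and −3.38 ± 0.40. The call of *Cacng5* after PD03 removal was lost without the stiff 12 h replicate 1 (−1.01, adjusted p = 0.0570).

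PD03 removal alone raised *Crocc2*, *Igfbp4*, *Nlrc4* and *Epha1* most. *Nlrc4*, a gene of the inflammasome, had 5.03 and 5.05 on soft and 5.88 and 5.18 on stiff substrates at 0 h and 25 and 25.7 on soft and 40.5 and 35.8 on stiff substrates at 12 h, a rise of 2.58 ± 0.097, and after CHIRON removal it changed by −0.29 ± 0.44 (95% interval −1.22 to 0.63) at levels of at most 0.985 CPM. The ephrin receptor gene *Epha1* rose by 2.56 ± 0.15 and had −1.07 ± 0.50 after CHIRON removal (adjusted p = 0.108). *Crocc2* rose by 3.05 ± 0.28 and *Igfbp4*, which encodes a binding protein of insulin-like growth factors, by 2.99 ± 0.32, against 0.093 ± 0.46 and −0.22 ± 0.24 after CHIRON removal. Lowered by PD03 removal alone were above all *Cyp1a1*, *Slc24a5*, *Aldh1a2* and *Pcdhb22*. *Slc24a5*, an ion exchanger gene, went from 2.48–3.7 to 0.46–0.797 CPM (−2.41 ± 0.27), with −0.39 ± 0.29 after CHIRON removal. *Pcdhb22*, a protocadherin gene with at most 3 counts in a 12 h library on stiff or soft substrates, changed by −1.70 ± 0.54 and lost its call without the soft 12 h replicate 2 (−1.48).

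CHIRON removal alone raised *Lefty1*, *Slc16a3*, *Lrtm2* and *Cyp3a13* most. *Lrtm2* rose by 2.69 ± 0.34, against −0.32 ± 0.34 after PD03 removal. *Cyp3a13*, a cytochrome P450 gene, rose from 0–0.197 to 0.258–0.858 CPM, levels of few counts. Lowered by CHIRON removal alone were above all *Sp5*, *St8sia2*, *S1pr3* and *Ccdc190*. *St8sia2*, which encodes the enzyme that adds polysialic acid, had 1.87 and 3.37 on soft and 2.82 and 4.34 on stiff substrates at 0 h and 0.112 and 0.258 on soft and 0.0513 and 0.107 on stiff substrates at 12 h of CHIRON removal (−4.55 ± 0.42). After PD03 removal it had 2.36–3.21 CPM at 0 h and 1.88–3.61 at 12 h (−0.10 ± 0.21). The sphingosine-1-phosphate receptor gene *S1pr3* went from 1.63–2.22 to 0–0.15 CPM (−4.21 ± 0.46) and *Ccdc190* from 1.79–2.98 to 0.112–0.386 CPM (−3.47 ± 0.38), and their 95% intervals after PD03 removal were −0.72 to 0.19 and −0.085 to 0.52.

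Soft and stiff substrates were separate samples, so classes called on soft substrates were read on stiff substrates and the reverse. The substrates stood in separate contrasts of a fit of all 8 libraries of an experiment, with 1 spread per gene for both. They also shared the experiment, the added culture time and the change of medium. Agreement of signs is likely for genes already called in both experiments, and the agreement over all joined genes was not computed. Of 574 genes that moved in opposite ways on soft substrates, 564 (98.3%) had the same pair of signs on stiff substrates and 359 were called there too. Of 529 genes that moved the same way on soft substrates, 519 (98.1%) kept their signs on stiff substrates and 359 were called. In the reverse reading, 600 of 614 opposite genes and 668 of 681 same-way genes called on stiff substrates had the same signs on soft substrates. The response itself was not shown to differ between the substrates for any gene: the interaction of substrate and time was called for 0 genes in both experiments by edgeR and by DESeq2. In edgeR's quasi-likelihood F test 954 of 13305 genes in PD03 removal and 386 of 13925 in CHIRON removal had an unadjusted p under 0.05. The lowest adjusted p of this test was 0.082 in PD03 removal and 0.99989 in CHIRON removal.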

How the data were processed

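RNA-seq libraries (ribosome-depleted total RNA) were made from E14 mESCs. Per the labels and the methods, the authors trimmed reads with Trim Galore, aligned them to mm10 with TopHat2 2.1.0 and counted reads per gene with featureCounts 1.5.0. The deposited values are raw read counts per gene, not normalised. The strand setting of the counting is not given in the sources used here, so overlapping and antisense genes are uncertain. Of the PD03 table, 12 columns of another medium, 23 empty lines and 15 gene names turned into dates were not used.

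Protein-coding genes were filtered (filterByExpr, minimum count 10, minimum total 15), TMM-scaled and tested with edgeR 4.0.16 (quasi-likelihood, R 4.3.3, Benjamini-Hochberg), 12 h against 0 h with substrate as a block, separately per experiment. The difference was tested in 1 fit of 16 libraries. The scripts were tested on simulated data. Named genes were the 3 markers, 4 genes of each class without overlap on both substrates, ranked by the smaller of the 2 absolute log2 fold changes (genes moved by both) or by the change in the calling experiment (genes moved by 1), without predicted genes, and the 2 to 4 members of each list with the largest difference. Other list members named, such as *Dusp6* and *Notum*, were chosen after their values were seen, and the alternatives were run for 135 genes that leave these out. The comparison, its members and all 31 lists were chosen with earlier results of these data known. Alternatives were DESeq2 1.42.0, voom (limma 3.58.1), upper-quartile scaling, other filters, a fold minimum, single substrates, a replicate block and leaving out each of the 16 libraries. Coordinates are those of GRCm38.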

Additional observations from a re-analysis of the deposited data

How the results depend on the processing

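Leaving out each library in turn gave 5845 to 6547 genes changed after PD03 removal and 3933 to 4721 after CHIRON removal. The upper ends of both ranges are the counts with all libraries, as dropping a library of 1 experiment leaves the other fit unchanged. Every fit that dropped a library of the experiment itself gave fewer genes. The other counts were 4876 to 5451 genes whose responses differed, 1172 to 1323 that moved the same way, 1082 to 1294 that moved in opposite ways and 3125 to 3423 moved by 1 inhibitor. The correlation was 0.00913 to 0.0249. With an absolute log2 fold change above 1 required, the 6 counts were 487, 620, 922, 46, 39 and 356. With the soft libraries alone they were 4116, 2693, 3074, 532, 599 and 2077. With the stiff libraries alone, CHIRON removal changed 2275 genes, 3237 responses differed, 610 genes moved the same way and 555 in opposite ways. Fewer libraries entered these fits. With all genes of the files the correlation was −0.022, and the cause was not tested. Among the 135 genes for which the alternatives were run, no called change turned its direction; other list members named, such as *Dusp6*, *Gsc* and *Klf4*, were not rerun. DESeq2 placed 1197 genes in the same-way and 1127 in the opposite classes. No clear pairing of libraries by replicate number was seen (correlation of deviations between −0.052 and 0.125 in PD03 removal and between −0.127 and 0.059 in CHIRON removal). With 2 libraries per group this cannot exclude that libraries of the same number shared a culture or batch. With the replicate number as a block the counts were 6582, 4493, 5255, 1327, 1249 and 3341. Genes with few counts, such as *Cdx2*, *Abcb11*, *Galnt18* and *S1pr3*, have wide intervals, and intervals cover the spread between libraries of 1 line only.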
